A study of Homo sapiens with 18 samples.

Results

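The genes described here encode the proteins of the cytosolic ribosome, measured in HK-2, a human kidney line made by immortalizing proximal tubule epithelium. They were chosen by symbol: RPL or RPS followed by a digit, RPSA, RPLP0, RPLP1 and RPLP2, with pseudogenes and RPS6 kinases left out, on probe sets that list exactly 1 gene. This gave 61 genes on 122 probe sets, of 19775 genes with such a probe set, and of several probe sets of a gene the one with the highest mean over the arrays was used. Total RNA was profiled on Affymetrix HG-U133 Plus 2.0 arrays, and the deposited values are log2 expression. All cells grew in a mixture of DMEM and Ham F12 with EGF, hydrocortisone, insulin, transferrin and selenite, and the 6 groups were medium alone, medium with DMSO and medium with ethanol, each for 24 h and for 48 h. Each group had 3 biological replicates, as the labels name them, so there were 18 arrays. Solvent doses are not given in the sources used here, and the text on the series names 12 h where the sample labels give 24 h; the labels were used. DMSO and ethanol are solvents in which test compounds are dissolved, and the comparisons ask what each solvent alone does to this set of genes.

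A cytosolic ribosome is built of a small subunit (40S), which binds the mRNA and reads its codons, and a large subunit (60S), which joins amino acids into the protein chain. Proteins of the small subunit are named RPS and those of the large subunit RPL, with the acidic proteins RPLP0, RPLP1 and RPLP2 forming the flexible stalk that recruits translation factors. Most of their mRNAs begin with a 5′ terminal oligopyrimidine (TOP) tract, a C followed by a run of C and T, through which mTORC1 and the RNA-binding protein LARP1 adjust their translation and stability together. A few genes encode close copies of a canonical protein, such as RPL22L1 beside RPL22 and RPS27L beside RPS27, and some of these are best known from testis or from stress responses.

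The annotated starts of some members show the tract and those of others do not, in canonical genes as well as copies. The lines give 30 bases around the annotated start in RefSeq (build GRCh38.p14), 5′ to 3′ on the gene's own strand, 15 before the start and 15 from it on. Capitals mark the unbroken run of C and T that begins with a C at the start, and lines without capitals have no such run. The starts that these cells use were not measured. RPS6, RPS19 and RPS24 stand for the 40S subunit, and RPL27A and RPLP2 are genes whose signal differed between solvents. RPL27 and RPS4X are canonical genes with no tract at the annotated start, and the other lines set copies beside canonical genes.
RPS6: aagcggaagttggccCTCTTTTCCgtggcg
RPS19: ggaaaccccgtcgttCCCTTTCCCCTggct
RPS24: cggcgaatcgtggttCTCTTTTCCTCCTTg
RPL27A: ttggcgaaggccttcCTTTTTCgtctgggc
RPLP2: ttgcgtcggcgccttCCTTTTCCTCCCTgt
RPL27: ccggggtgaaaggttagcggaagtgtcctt
RPS4X: gcagtctccagccccaatttctacgcgcac
RPL22: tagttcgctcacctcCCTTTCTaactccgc
RPL22L1: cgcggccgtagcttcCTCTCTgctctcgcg
RPS27: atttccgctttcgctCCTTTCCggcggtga
RPS27L: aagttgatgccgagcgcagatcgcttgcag
RPL26L1: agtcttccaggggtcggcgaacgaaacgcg
RPL10L: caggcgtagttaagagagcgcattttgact

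The run was 14 bases long in RPS24, 13 in RPLP2 and 6 in RPL22L1. Of 53 members with a promoter sequence in RefSeq, 35 (66.0%) began with a C followed by at least 4 further C or T on the gene's strand, against 1104 of 27305 promoters in all (4.04%) and 5.40% of the genes tested. When the start was allowed to move by up to 5 bases, 43 members (81.1%) and 21.1% of all promoters held such a tract. Among canonical genes 33 of 46 began with it, and among copies 2 of 7. At the annotated start RPL22L1 and RPL22 both carry the tract, whereas RPS27L shows none beside RPS27. RPS27L starts on chromosome 15 at 63157477, RPL22L1 on chromosome 3 at 170870195 and RPL10L on chromosome 14 at 46651781, all on the minus strand, and RPL27A on chromosome 11 at 8682792 on the plus strand.

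The platform covered the ribosome in part. Of 77 canonical ribosomal protein genes, 52 had a probe set of their own, and 25 did not. Of those 25, 15 were on probe sets listing several genes and were not named from them. RPLP0, RPSA, RPL5 and RPL13A were among the 25, so no value is given for them. The other 9 of the 61 genes are copies. A probe set was tested where its log2 value was above 4 on at least 3 arrays, and 59 of 61 genes were, 37 of the 60S and 22 of the 40S subunit. RPL3L, a copy of RPL3 best known from heart and skeletal muscle, was at a mean of 2.33, and RPL36A was at a mean of 3.10 with values from 2.90 to 3.80. Neither was tested. One tested member is Y-linked. It enters the counts and medians, and its level is not printed.

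The arrays had alike overall signal, with medians of 2.86 to 2.95 and 39.7% to 40.3% of probe sets above 4. Both ethanol arrays of replicate 3 stood apart from the rest: on the second principal component of the 10832 genes tested, which held 30.7% of the variance, they scored 52.3 and 61.6, and the highest of the other arrays scored 21.2. Results that rest on ethanol arrays are therefore also given without these arrays where that changes them. The proximal tubule genes PAX8 and CDH6 were expressed, at 10.23 to 11.44 and 11.05 to 13.03, but LRP2, CUBN, ANPEP, AQP1 and other markers of the differentiated tubule stayed under the level for testing, and 2 of the 12 markers on that list were tested. All 5 epithelial markers, 3 of 6 fibroblast markers and 1 of 4 podocyte markers were tested, and none of the endothelial, leukocyte, or loop and collecting duct markers was. The tested fibroblast markers were COL1A1, DCN and LUM, and the podocyte marker was PTPRO. CDH1 was tested but lay at 2.58 and 3.77 on the ethanol arrays of replicate 3 at 24 h and 48 h, and at 6.61 or higher on the other arrays. The values of an array are relative to its own total signal, so these data do not show the amount of ribosomal protein mRNA per cell, and fewer cells of a type and less RNA per cell cannot be told apart.

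Most members gave signals near the top of the measured range. Of the 59 tested members, 48 had a mean above 14, as had 67 other genes, and the highest value of each array lay between 15.82 and 16.14. RPL41, the smallest ribosomal protein, had values from 15.55 to 15.71 over the 18 arrays. RPS6, the 40S protein phosphorylated by S6 kinases, had values from 14.88 to 15.13. Levels of different probe sets are not compared here, since each binds with its own strength. How fully signals this near the top of the scale follow their mRNAs was not tested.

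Replicates lay close together. The median SD within groups was 0.0701 over the members, 0.229 over all genes tested, and 0.107 over the 67 other genes with a mean above 14, where members of that level had 0.0654. RPL41 (0.0328), RPS24 (0.0337) and RPS21 (0.0357) were the steadiest. RPL39L (0.235), RPL10L (0.227) and RPL22L1 (0.192), all of them copies, had the largest SD. RPS19, which binds the head of the 40S subunit and is the gene most often mutated in Diamond-Blackfan anemia, lay between 14.86 and 15.12 on all arrays. RPL11, which carries the 5S RNA with RPL5 and can bind MDM2 when free, lay between 14.29 and 14.45.

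Ethanol was compared with medium at 24 h. No member passed limma's test at an adjusted p under 0.05, where 0.0739% of all tested genes passed, and 5 members had an unadjusted p under 0.05. The largest differences belonged to RPL27A and RPLP2, which have weak signals here. RPL27A, a 60S protein, was at 8.50, 8.70 and 8.54 in medium and at 9.37, 9.29 and 8.98 with ethanol, a difference of 0.63 ± 0.11 (SE, n = 3 arrays per group, adjusted p = 0.0566). RPLP2, a stalk protein, was at 4.07, 4.12 and 4.11 in medium and at 4.74, 4.84 and 4.77 with ethanol, a difference of 0.68 ± 0.14 (adjusted p = 0.0802). In both genes all ethanol arrays lay above all medium arrays, and RPLP2 was just above the level for testing. Arrays of the same replicate number deviated together in these groups, and with the replicate number as a block both passed, at adjusted p = 0.0282 and 0.0380, where 1.02% of all genes passed. Without the ethanol arrays of replicate 3 they passed too, at 0.75 ± 0.11 and 0.69 ± 0.15 (adjusted p = 0.00715 and 0.0489), where 1.33% of all genes did. The 3 next smallest p-values belonged to RPS27L (-0.29 ± 0.11), RPS12 (0.19 ± 0.08) and RPL22 (0.18 ± 0.08), with adjusted p of 0.444 to 0.552. Over all members the median difference was 0.04, with 44 of 59 means higher, beside a median of -0.03 over all genes.

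At 48 h, ethanol and medium differed in many genes, and 2 of the 59 members (3.39%) passed, both higher with ethanol, where 15.3% of all genes tested passed in either direction and 7.8% were higher. Both encode copies of canonical 60S proteins. RPL22L1, the copy of RPL22, was at 11.25, 10.88 and 11.08 in medium and at 11.71, 11.91 and 11.73 with ethanol. It rose by 0.71 ± 0.16 (SE, n = 3, limma adjusted p = 0.00778), a 1.64-fold difference, and the groups did not overlap. RPL22 itself was at 14.60, 14.45 and 14.52 in medium and at 14.65, 14.74 and 14.59 with ethanol, a difference of 0.14 ± 0.08 (adjusted p = 0.273). The groups overlapped in RPL22.

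RPL10L, an intronless copy of RPL10 known from testis, was the other. It was at 4.40, 4.58 and 4.66 in medium and at 5.70, 5.00 and 5.02 with ethanol, and it rose by 0.69 ± 0.18 (adjusted p = 0.0195). The groups did not overlap, but the signal is close to the level for testing, and replicate 1 was the highest of the ethanol arrays by a wide margin. RPL10L did not pass without medium replicate 1 (adjusted p between 0.00670 and 0.147 over all alternatives), with array weights, or under a filter at 6, which removes it. Neither gene passed with only the arrays of these 2 groups in the fit, at adjusted p = 0.0742 for RPL22L1 and 0.147 for RPL10L. Without both ethanol arrays of replicate 3 the differences were 0.74 in RPL22L1 and 0.80 in RPL10L, and 4 members passed, where 17.3% of all genes did. The further members were RPL27A at 0.36 (adjusted p = 0.0362) and RPL29, a 60S protein, at 0.33 (adjusted p = 0.0212), which was at 14.55, 14.60 and 14.24 with ethanol and at 14.33, 14.17 and 14.23 in medium. Only the array of replicate 3 overlapped with medium in RPL29.

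**Figure D1:**
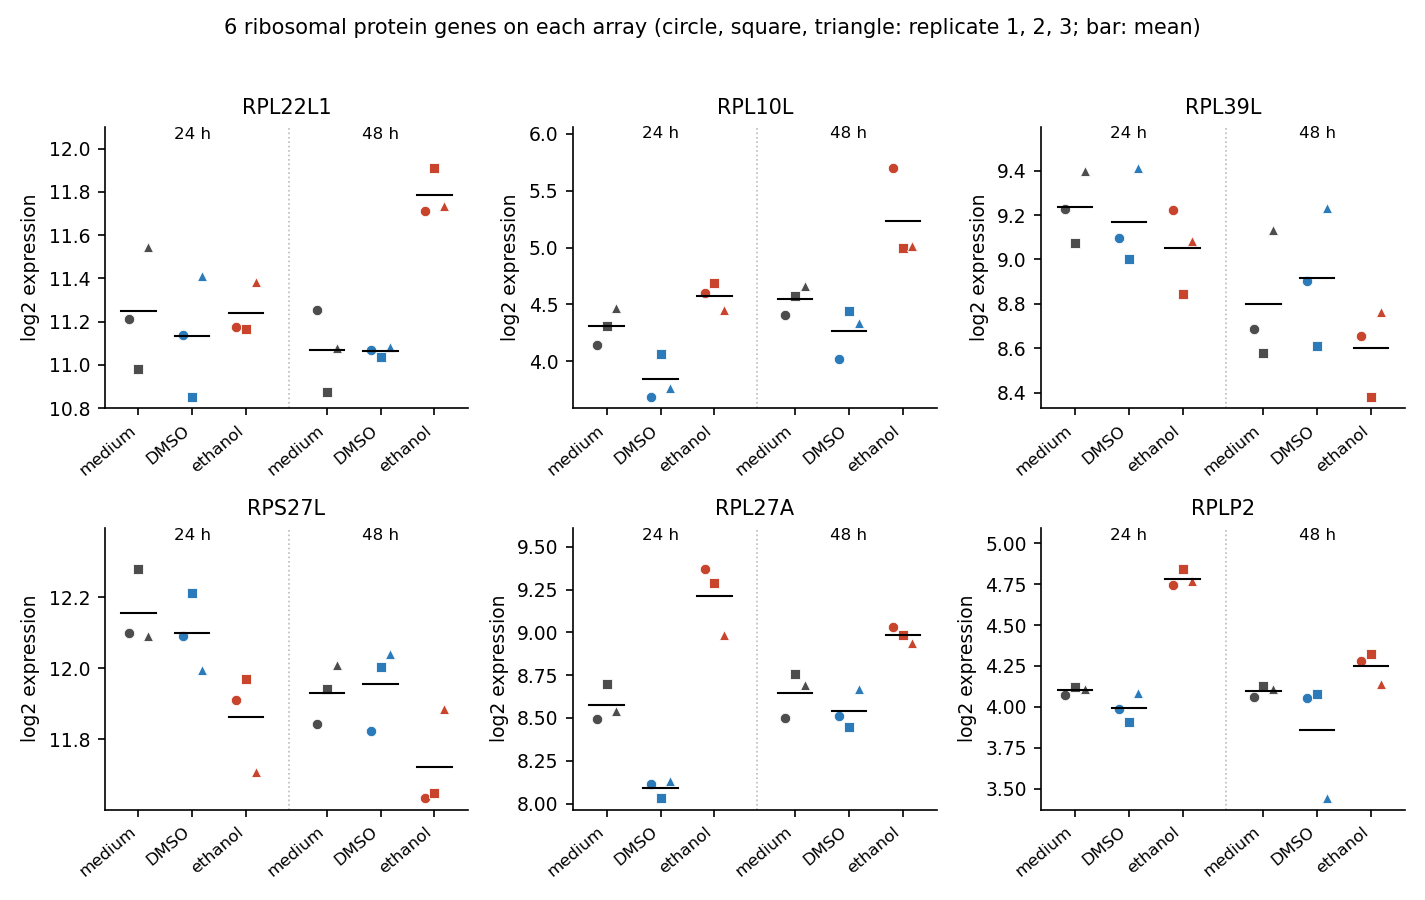
Log2 expression (vertical axis, not from 0) of RPL22L1, RPL10L, RPL39L, RPS27L, RPL27A and RPLP2 on each array, by treatment and time, with replicates 1 to 3 as circle, square and triangle and the group mean as a bar. RPL22L1 stood at 11.71 to 11.91 with ethanol at 48 h and at 10.85 to 11.55 on all other arrays.

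Differences in the bulk of the ribosome were small. Differences of the 48 members with a mean above 14 ran from -0.06 in RPL38 to 0.22 in RPL29, and none passed in this fit. Of the 67 other genes in that range of signal 12 (17.9%) passed, 1 higher and 11 lower, with a median difference of -0.16. Members and these other genes were set side by side after the data were seen. The median difference over all members was 0.07, with 46 of 59 means higher, beside -0.04 over all genes. With quantile normalization of the deposited values it was 0.04. By array, the median deviation of the members from their own means was 0.12, 0.09 and 0.01 with ethanol at 48 h, and it lay between -0.08 and 0.04 on the other arrays. The ethanol array of replicate 3 thus lay within the range of the arrays without ethanol.

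**Figure D2:**
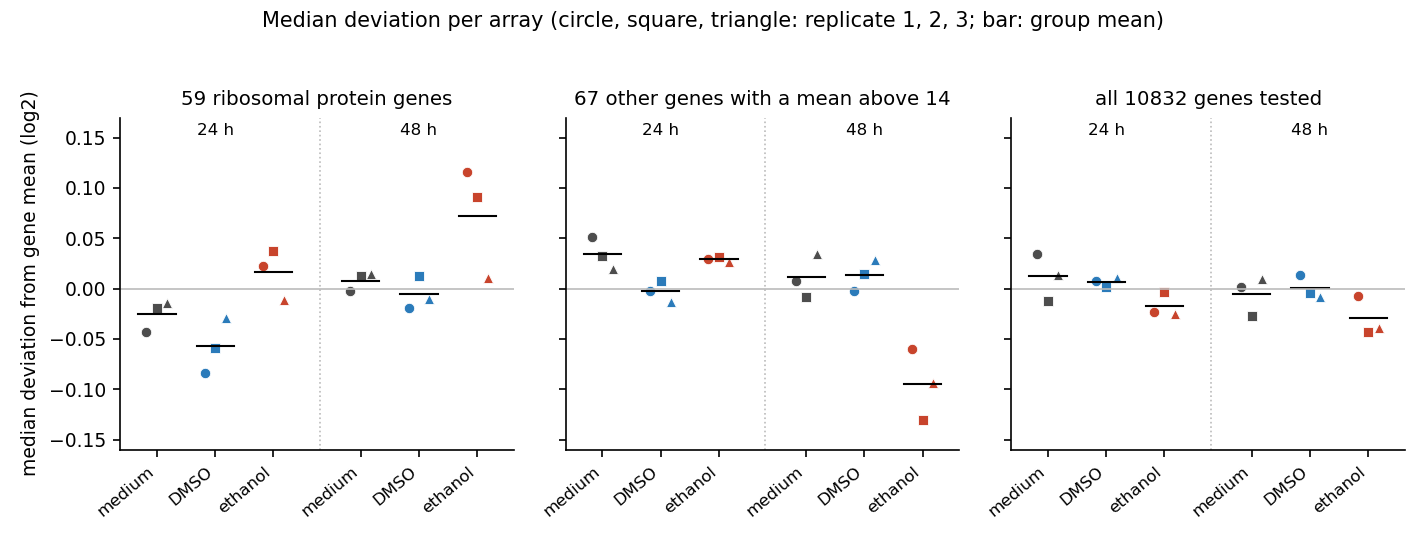
Median deviation from each gene's own mean over 18 arrays (log2, vertical axis) on each array, for the 59 tested ribosomal protein genes, 67 other genes with a mean above 14 and all 10832 genes tested; markers are replicates 1 to 3 and bars are group means. With ethanol at 48 h the ribosomal protein genes had a mean of 0.07 and the other high genes a mean of -0.09.

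**Figure D3:**
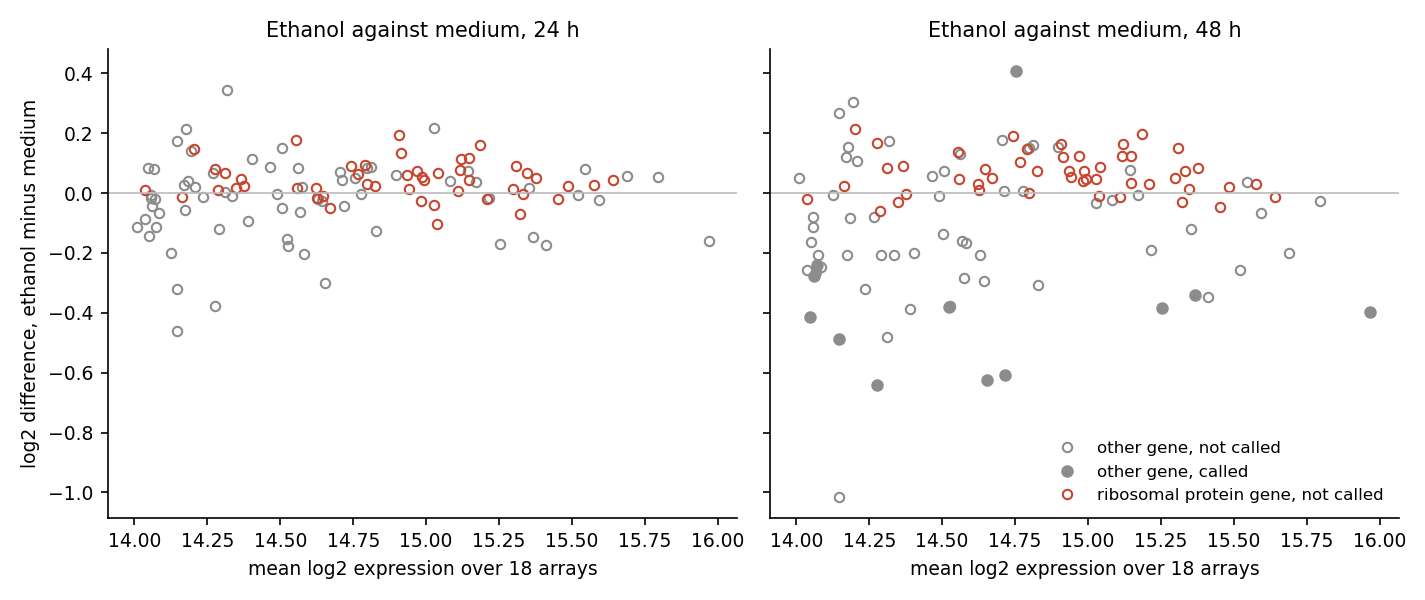
Log2 difference between ethanol and medium (vertical axis) against the mean log2 expression over 18 arrays (horizontal axis) for the 48 ribosomal protein genes and 67 other genes with a mean above 14, at 24 h and 48 h; filled points passed an adjusted p of 0.05. At 48 h 12 of the other genes and none of the ribosomal protein genes of this level passed.

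Whether single bright members passed depended on the spread that the empirical Bayes step assigned to them. RPL18, a 60S protein, was 0.19 higher with ethanol with a standard error of 0.0816 in the main analysis (adjusted p = 0.128) and of 0.0554 when that step followed the level of the genes and was made robust (adjusted p = 0.0297). In that setting 5 members passed, where 16.1% of all genes did: RPL22L1, RPL10L, RPL18, RPS12 at 0.16 and RPS27 at 0.20. Without a filter on low values 6 passed, where 6.94% of all genes did, among them RPS19 and RPS21 at 0.12 each. RPS19 was at a mean of 14.97 in medium and at 15.12, 15.10 and 15.07 with ethanol, and its groups did not overlap although its difference was small.

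By role, none of the groups of canonical proteins had a member that passed at 48 h, where 15.3% of all genes did. With 1 to 14 tested genes, these groups are too small for the absence of a call to set a role apart. The stalk and its base had 3 tested members, RPLP1 at 0.07 ± 0.09, RPLP2 at 0.15 ± 0.14 and RPL12, which holds the stalk base, at 0.15 ± 0.10. Proteins lining the peptide tunnel and its exit had 5, with a median of 0.09 and values from -0.01 (RPL39) to 0.17 (RPL35). Proteins of the mRNA entry and decoding region of the 40S subunit had 4, RPS3, RPS9, RPS15 and RPS23, with values from 0.01 to 0.09. Of the 14 tested genes mutated in Diamond-Blackfan anemia, an inherited failure of red cell formation, none passed, with a median of 0.12, the lowest RPS24 at -0.05 and the highest RPS27 at 0.20. RPL11 was at a mean of 14.38 in both groups (SE of the difference 0.0764). RPL3, which lies near the peptidyl transferase center, differed by 0.08 ± 0.13, and RPS6 by -0.01 ± 0.09. The 37 tested members of the 60S subunit had a median of 0.07 and the 22 of the 40S subunit a median of 0.05. Split by the annotated start, the 33 tested members that begin with a TOP tract had a median of 0.09, with 26 higher. The 18 that do not had a median of 0.05, with 15 higher. The ranges were -0.06 to 0.71 and -0.21 to 0.69, so both kinds held a member that rose. Some of the 18, such as RPL11 and RPL3, hold the tract within 5 bases of the annotated start. The split is thus one of annotated starts, not of mRNAs with and without the tract.

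**Figure D4:**
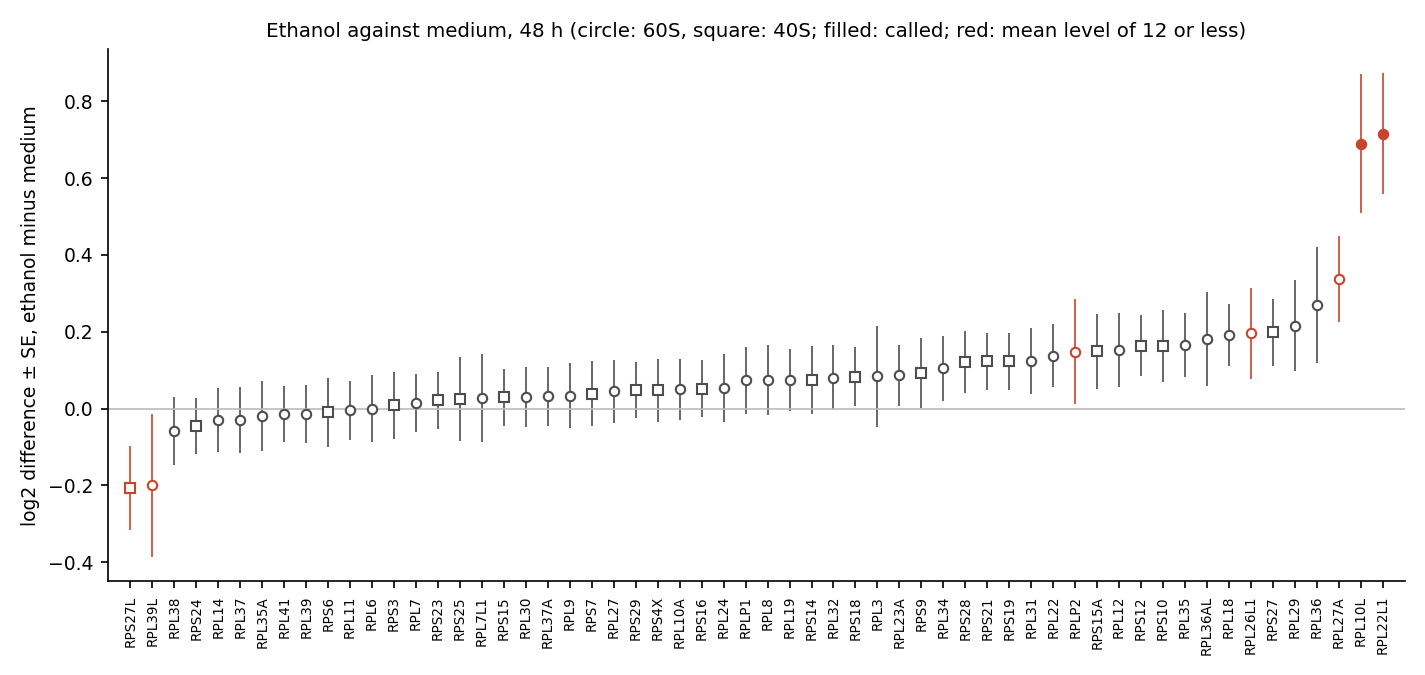
Log2 difference between ethanol and medium at 48 h with its standard error (vertical axis) for each tested ribosomal protein gene other than the Y-linked one, ordered by the difference; circles are 60S and squares 40S proteins, filled points passed an adjusted p of 0.05, and red marks a mean of 12 or less. RPL22L1 (0.71) and RPL10L (0.69) passed, RPL27A (0.34) did not, and RPS27L (-0.21) and RPL39L (-0.20) had the lowest values.

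Other copies went their own ways, and none of them passed at 48 h. RPL26L1, the copy of RPL26, differed by 0.20 ± 0.12 and RPL36AL, the copy of RPL36A, by 0.18 ± 0.12. RPS27L, which p53 induces, was at 11.84, 11.94 and 12.01 in medium and at 11.63, 11.65 and 11.89 with ethanol, a difference of -0.21 ± 0.11 (adjusted p = 0.221), and the groups overlapped. Its weaker probe sets pointed the other way, 222487_s_at at 0.35 ± 0.18 and 238935_at at 0.29 ± 0.24, neither of them past the threshold against medium. RPL7L1, which takes part in building the 60S subunit, differed by 0.03 ± 0.12.

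Ethanol was also compared with DMSO, another solvent. These comparisons share the ethanol arrays with the ones above. At 24 h 2 members (3.39%) passed, where 0.619% of all genes did and 0.286% were higher. RPL27A was at 8.11, 8.03 and 8.13 with DMSO, below all ethanol arrays, and differed by 1.12 ± 0.11 (limma adjusted p = 0.000726). RPLP2 was at 3.99, 3.91 and 4.09 with DMSO and differed by 0.79 ± 0.14 (adjusted p = 0.0217), but not past the threshold without DMSO replicate 1, DMSO replicate 2 or ethanol replicate 2. Neither passed with only the arrays of these 2 groups in the fit (adjusted p = 0.222 and 0.241). RPL10L differed by 0.74 ± 0.18, without passing (adjusted p = 0.0941).

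At 48 h 3 members (5.08%) were higher with ethanol than with DMSO, where 17.9% of all genes passed and 8.55% were higher. RPL10L was at 4.02, 4.44 and 4.33 with DMSO and differed by 0.97 ± 0.18 (adjusted p = 0.00250). RPL22L1 was at 11.07, 11.04 and 11.08 with DMSO, so its 3 DMSO arrays were tighter than the medium arrays, and it differed by 0.72 ± 0.16 (adjusted p = 0.00622). This difference kept its call in all 29 alternatives run, with adjusted p between 0.00205 and 0.0492, the highest just under the threshold. RPL27A differed by 0.44 ± 0.11 (adjusted p = 0.0145) and lost its call without DMSO replicate 1 or 2, and RPL27A and RPL10L both lost theirs with only these 2 groups in the fit (for RPL27A adjusted p between 0.00601 and 0.106 over all alternatives). RPL27A was at 8.51, 8.45 and 8.67 with DMSO and at 9.03, 8.99 and 8.94 with ethanol. The median over all members was 0.08, with 50 of 59 means higher, beside -0.05 over all genes.

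Between DMSO and medium no member passed the test. None of 59 members did at either time, where 0% of all genes did, and the number with an unadjusted p under 0.05 in limma's test was 2 at 24 h and 0 at 48 h. The 2 were RPL27A, at -0.49 ± 0.11, and RPL10L, at -0.47 ± 0.18 (adjusted p = 0.908 and 1.00), and no DMSO array overlapped the medium arrays in either. The groups did not overlap at 24 h in RPL39, RPL10A and RPL26L1 either, at differences of -0.13 ± 0.08, -0.12 ± 0.08 and 0.17 ± 0.12. The share of all tested genes without overlap was not counted, so a lack of overlap does not set these members apart. A p that misses the threshold does not show that these groups were alike. The median difference was -0.03 at 24 h, with 15 of 59 means higher, and -0.01 at 48 h. At 48 h the differences of all but the Y-linked member ran from -0.28 in RPL10L to 0.12 in RPL26L1. RPL22L1 differed by -0.11 ± 0.16 at 24 h and -0.01 ± 0.16 at 48 h, and RPS6 by -0.02 ± 0.09 and -0.01 ± 0.09. RPS19, RPL3 and RPL11 had values of 14.90, 14.16 and 14.37 as DMSO means at 24 h, beside 14.91, 14.16 and 14.36 in medium.

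Time in culture was followed within each treatment. In medium and in DMSO no member passed between 48 h and 24 h, where 0% of all genes did, and 1 and 2 members had an unadjusted p under 0.05 in limma's test. With ethanol 3 members (5.08%) passed, where 23.0% of all genes did. RPL22L1 went from 11.18, 11.17 and 11.38 at 24 h to the values above and rose by 0.54 ± 0.16 (adjusted p = 0.0227), and it fell short of the threshold without ethanol replicate 1 or 2 at 24 h or replicate 2 at 48 h. RPL10L rose by 0.66 ± 0.18 (adjusted p = 0.0169), from 4.60, 4.68 and 4.45, and it lost its call without ethanol replicate 3 at 24 h or replicate 1 at 48 h. RPLP2 fell by 0.54 on the log2 scale (SE 0.14, adjusted p = 0.0112), from the raised values at 24 h to 4.28, 4.32 and 4.14 at 48 h. Without both ethanol arrays of replicate 3 its adjusted p was 0.0608. With only these 2 groups in the fit none of the 3 passed, at adjusted p = 0.0984, 0.162 and 0.0855.

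RPL39L, a copy of RPL39 found in the peptide tunnel and best known from testis, was lower at 48 h in each treatment. It was at 9.23, 9.08 and 9.40 in medium at 24 h and at 8.69, 8.58 and 9.13 at 48 h, a difference of -0.43 ± 0.19 (adjusted p = 0.424). With ethanol it went from 9.22, 8.84 and 9.08 to 8.66, 8.38 and 8.76, a difference of -0.45 ± 0.19 (adjusted p = 0.0994). In both treatments replicate 3 was high and replicate 2 low at 48 h, and within each replicate number the 48 h array was the lower. With the replicate block the differences passed, with adjusted p = 0.0359 in medium, where 4.04% of all genes passed, and 0.00515 with ethanol, where 32.8% did. In DMSO the difference was -0.25 ± 0.19. RPL3 was 0.25 to 0.26 higher at 48 h in all 3 treatments, without passing.

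The change over time was compared between treatments. No member passed for ethanol against medium, where 1.59% of all genes did, or for DMSO against medium, where 0% did, and 2 and 1 members had an unadjusted p under 0.05 in limma's test. The smallest p-value was that of RPL22L1 with ethanol, at 0.72 ± 0.22 (unadjusted p = 0.00563, adjusted p = 0.131). It was -0.01 ± 0.16 from medium at 24 h and 0.71 ± 0.16 at 48 h, but the difference between these values did not pass. RPLP2 had -0.53 ± 0.19 (adjusted p = 0.204).

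Members with several probe sets were also described probe set by probe set. Of the 104 tested probe sets of members that are not Y-linked, each fitted on its own, 64 had a mean above 14. None of these 64 passed in any of the 11 comparisons, with or without the replicate block. Bright members did pass in some other settings of the fit of 1 probe set per gene, such as RPL18, RPS12 and RPS27 with the trended prior above, and RPL22, RPL29, RPS12 and RPS27 with array weights between ethanol and DMSO at 24 h. Fitting single probe sets was chosen after the data were seen. At 24 h, 6 probe sets of 5 genes were higher with ethanol than with DMSO, where 0.699% of all probe sets passed. At 48 h 7 of the 104 probe sets, of 6 genes, were higher, a smaller share than the 15.5% of all probe sets that passed. One of them was 222487_s_at of RPS27L, at 0.60 ± 0.18 (limma adjusted p = 0.0351). The probe set used for that gene, 218007_s_at, pointed the other way at -0.23 ± 0.11, without passing (adjusted p = 0.181).

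RPL38, a 60S protein, gives the clearest case. Its bright probe set 202029_x_at was at 14.30, 14.17 and 14.34 with DMSO at 24 h and at 14.38, 14.28 and 14.28 with ethanol. Its weak probe set 221943_x_at was at 8.33, 8.46 and 8.19 with DMSO, at 9.13, 9.11 and 9.04 in medium and at 10.13, 9.93 and 9.74 with ethanol. The 3 groups were thus fully apart in the weak probe set and overlapped in the bright one. The difference between ethanol and DMSO was 1.60 ± 0.16 (adjusted p = 0.000458) in 221943_x_at and 1.26 ± 0.17 (adjusted p = 0.00379) in the other weak probe set, 202028_s_at.

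The same order of group means was seen in some other weak probe sets, picked because they passed between ethanol and DMSO. RPL37A had 214041_x_at at 8.31, 7.57 and 7.90 with DMSO and at 9.56, 9.41 and 9.11 with ethanol at 24 h, a difference of 1.44 ± 0.21 (adjusted p = 0.00665), beside a bright probe set at 15.50 to 15.65 on all arrays. RPS10, a 40S protein, had 214001_x_at, which differed by 0.89 ± 0.17 (adjusted p = 0.0278). Between DMSO and medium at 24 h the differences were -0.72 ± 0.21 in 214041_x_at and -0.41 ± 0.17 in 214001_x_at. Not every weak probe set shared this order. In 224766_at of RPL37 and 235309_at of RPS15A the DMSO means at 24 h were above those of medium, by 0.25 ± 0.19 and 0.17 ± 0.51. RPL27A and RPLP2, described above, have no tested bright probe set of their own.

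The 28S rRNA control on the arrays moved in the same order. It was at 9.68, 8.95 and 9.53 in medium, at 8.28, 7.57 and 7.97 with DMSO and at 10.81, 10.33 and 10.61 with ethanol at 24 h, and the groups did not overlap. At 48 h its group means were 9.71 in medium, 8.92 with DMSO and 10.16 with ethanol, and those of RPL27A were 8.65, 8.54 and 8.99. The groups at 48 h thus stood in the order of those at 24 h. RPL10L followed this order too, with means of 4.31 in medium, 3.84 with DMSO and 4.58 with ethanol at 24 h and of 4.55, 4.27 and 5.24 at 48 h. The part of the 28S signal in the values of RPL10L, RPL27A, RPLP2, RPL38, RPL37A and RPS10 was not tested. The gap between the 3′ and 5′ probe sets of ACTB, a sign of RNA length, had group means from 0.75 to 0.90, and that of GAPDH from -0.14 to -0.09.

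Weak probe sets of RPL37, RPL31 and RPS15A had higher means at 48 h than at 24 h in all treatments. In RPL37, a 60S protein, 224767_at was at 7.77, 7.71 and 7.49 in medium at 24 h and at 9.08, 8.84 and 8.36 at 48 h. With ethanol it went from 7.73, 8.24 and 7.08 to 9.56, 10.13 and 8.64, a rise of 1.76 ± 0.34 (adjusted p = 0.00251, where 19.6% of all probe sets passed). All 48 h arrays lay above all 24 h arrays in both treatments. In medium the rise of 1.10 passed only with the replicate block (adjusted p = 0.0271, where 2.73% of probe sets passed). The bright probe set of RPL37, 200092_s_at, was between 15.22 and 15.45 on all arrays.

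RPL31 behaved alike. Its probe set 221593_s_at was 0.53 higher at 48 h in medium, 0.50 with DMSO and 0.50 with ethanol, and each passed with the replicate block (adjusted p = 0.0281, 0.0458 and 0.00407, where 2.73%, 1.16% and 29.6% of probe sets passed) and not without it. Its bright probe set, 200963_x_at, was 0.07 to 0.09 higher. In RPS15A the weak probe set 235309_at was at 6.77, 6.69 and 4.76 with ethanol at 24 h and at 7.42, 7.89 and 6.02 at 48 h. Ethanol replicate 3 was the lowest of the 24 h arrays in this probe set, and also in 200962_at of RPL31, at 7.46, and in 224763_at of RPL37, at 5.94. Which part of each transcript these probe sets bind was not examined here.

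**Figure D5:**
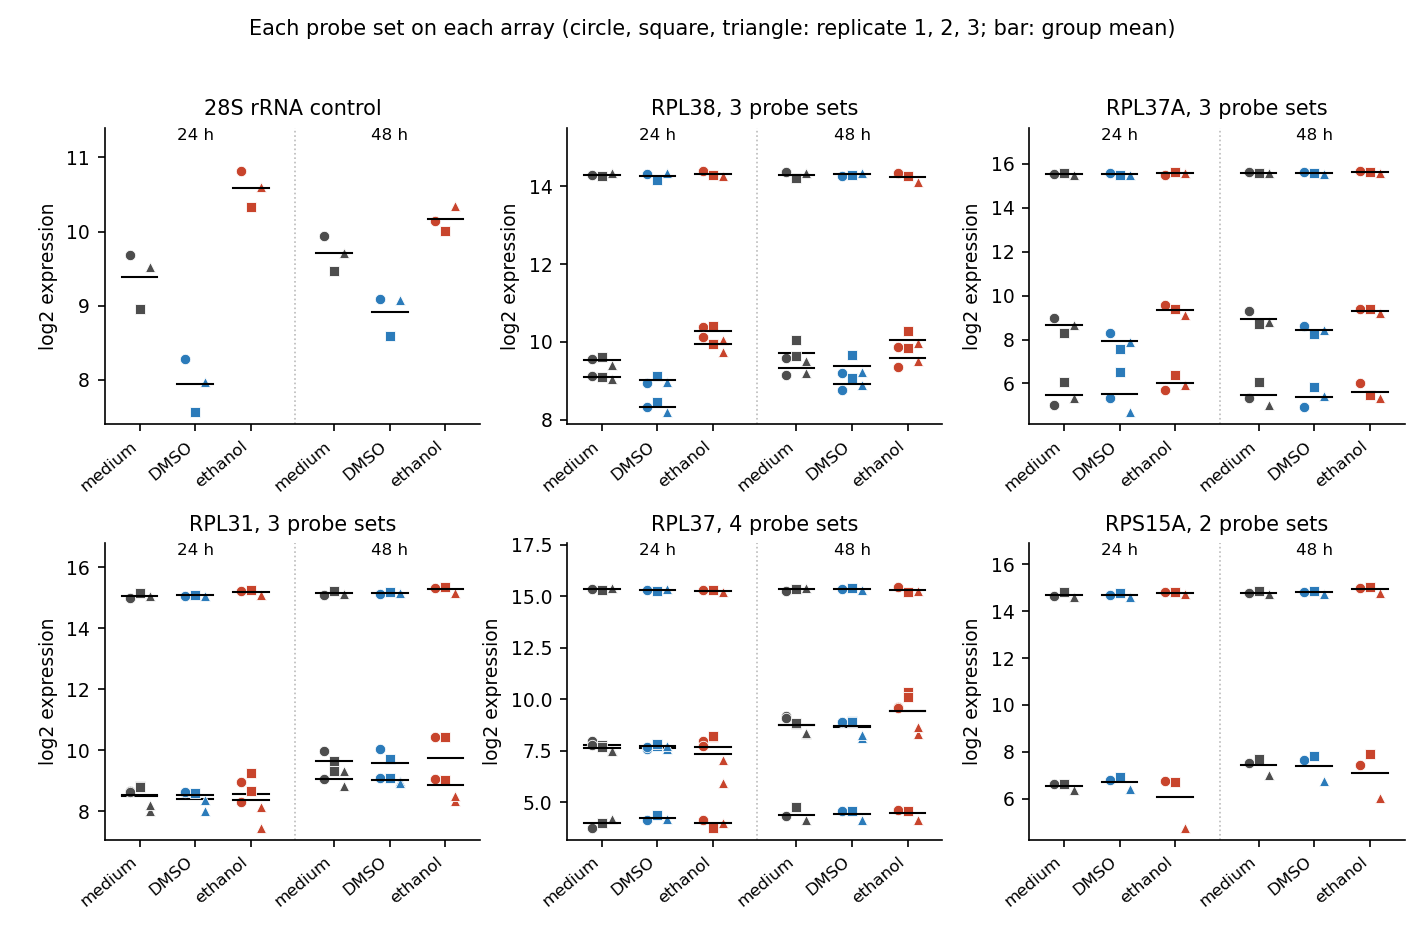
Log2 expression (vertical axis, not from 0) of the 28S rRNA control and of every tested probe set of RPL38, RPL37A, RPL31, RPL37 and RPS15A on each array; markers are replicates 1 to 3 and bars are group means. None of the bright probe sets, above 14, passed in this fit, while 221943_x_at of RPL38 went from 8.33 with DMSO to 9.93 with ethanol at 24 h, as group means, and 224767_at of RPL37 was higher at 48 h.

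Other translation genes known for TOP mRNAs were listed as well, and the 9 with a RefSeq promoter all began with the tract. Of 15 tested between ethanol and medium at 48 h none passed, where 15.3% of all genes did, with a median of 0.10. EEF1A1, the elongation factor that brings tRNAs to the ribosome, differed by -0.03 ± 0.08, EEF2, which drives its forward step, by 0.12 ± 0.14, and TPT1 by 0.08 ± 0.09. PABPC1, the poly(A)-binding protein, had the largest value at 0.27. FAU, whose product is cleaved into a ubiquitin-like protein and RPS30, differed by -0.03 ± 0.12. RACK1, a protein of the 40S subunit under another name, was not among the genes tested.

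Of 15 tested genes that control TOP mRNAs through mTORC1, 5 passed, 3 higher and 2 lower, where 15.3% of all genes passed. The lists of pathway genes were chosen with earlier results of these data known, so these counts are no independent support. EIF4EBP1, which blocks cap-dependent translation when mTORC1 is off, was at 9.52, 8.94 and 9.11 in medium and at 9.96, 10.59 and 10.66 with ethanol, and it rose by 1.21 ± 0.21 (adjusted p = 0.00173). SESN2, a leucine sensor that restrains mTORC1, was at 8.88, 7.92 and 7.94 in medium and at 9.27, 9.54 and 9.96 with ethanol, and it rose by 1.34 ± 0.24 (adjusted p = 0.00265). Neither gene had overlapping groups. RPS6KB1, the kinase of RPS6, rose by 0.38 ± 0.10 (adjusted p = 0.0163), but by 0.23, without passing, as the mean of its probe sets. EIF4EBP2 fell by 0.72 on the log2 scale (SE 0.15, adjusted p = 0.00701) and TSC1, a brake on mTORC1, fell by 0.66 (SE 0.16, adjusted p = 0.0117). MTOR itself differed by -0.02 ± 0.10, LARP1 by 0.06 ± 0.13, DDIT4 by -0.02 ± 0.33 and MYC, which drives transcription of ribosome genes, by -0.34 ± 0.14 (adjusted p = 0.121).

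Chaperones of ribosomal proteins had 1 rise and 1 fall among 11 tested, where 15.3% of all genes passed. A list of ribosome quality control genes, which also held EEF2K, had 1 of each among 8. RPS19BP1 was at 9.38, 9.14 and 9.49 in medium and at 9.46, 10.18 and 9.98 with ethanol, and it rose by 0.54 ± 0.16 (adjusted p = 0.0319), although its groups overlapped and 7 of 29 alternatives lost the call. TSR2, which delivers RPS26, fell by 0.35 (SE 0.11, adjusted p = 0.0444), a call that 17 of 29 alternatives lost. On the quality control list ASCC3, which splits stalled ribosomes, rose by 0.32 ± 0.10 (adjusted p = 0.0427, also lost in 17 of 29). EEF2K, the kinase that halts EEF2 and not itself a quality control factor, fell by 0.64 (SE 0.14, adjusted p = 0.00849). None of the 4 tested readouts of p53, which free RPL5 and RPL11 can raise through MDM2, passed: MDM2 differed by -0.01 ± 0.14 and CDKN1A by 0.29 ± 0.27. None of the 4 tested ribosome-associated and dormancy factors passed either. Between 24 h and 48 h with ethanol, 23.0% of all genes passed. Among these, MDM4 rose by 0.86 ± 0.19 (adjusted p = 0.00428), SESN2 by 1.87 ± 0.24 (adjusted p = 0.000151) and EIF4EBP1 by 1.25 ± 0.21 (adjusted p = 0.000810). EIF3L rose by 0.31 and LTN1 by 0.34, and HBS1L fell by 0.40, calls that 15 to 19 of their alternatives lost. At 24 h none of these pathway genes passed between ethanol and medium, where 0.0739% of all genes did, so few calls could be had in any list.

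Some markers of cell identity moved with ethanol at 48 h. LUM, a fibroblast marker, fell by 1.07 (SE 0.26, adjusted p = 0.0135) and PTPRO, a podocyte marker, fell by 1.08 (SE 0.19, adjusted p = 0.00218). In this comparison 15.3% of all genes passed. Of the other tested fibroblast markers, COL1A1 had means of 7.98 in medium and 7.82 with ethanol. DCN had means of 11.69 and 10.49, but its ethanol replicate 3, at 12.21, lay above all medium arrays. The summed log2 level of the 3 tested fibroblast markers was 29.20 to 29.73 in medium and 24.73 to 29.12 with ethanol, and PTPRO was at 13.02 to 13.28 and at 11.72 to 12.35. The 2 tested proximal tubule markers summed to 23.04 to 23.36 in medium and to 21.81, 21.30 and 23.56 with ethanol, so that without ethanol replicate 3 they lay below all medium arrays. The 5 epithelial markers summed to 56.08 to 58.52 in medium and to 57.10, 58.91 and 51.55 with ethanol, where CDH1 was at 3.77 on replicate 3, and without that array the groups overlapped. The fibroblast sum without replicate 3 was 27.01 and 24.73. None of these proximal tubule and epithelial markers passed with all arrays in the fit. The part of these markers in the values of RPL22L1 and RPL10L was not tested.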

How the data were processed

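The deposited table holds 54675 probe sets as log2 expression that the authors made with GCRMA, per the submitters' processing notes, a method that corrects background by probe sequence and normalizes between arrays. The log2 scale was read from the values, and the version of GCRMA was not given in the sources used here. Arrays have no read depth, and their number limits the precision. Of the probe sets, 62 were controls, 41091 listed 1 gene, 1801 several and 11721 none, and symbols were updated through the gene identifier in RefSeq where it matched.

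Tests used limma 3.58.1 in R 4.3.3: 6 group means in 1 fit of 10832 genes, with 12 residual and 2.65 prior degrees of freedom, 11 contrasts, two-sided p-values and Benjamini-Hochberg adjustment within each contrast, called under 0.05. Errors are standard errors. The labels name biological replicates but no separate cultures, so p-values measure the spread between these arrays. The script was tested on simulated data. The members and gene lists were chosen with earlier results of these data known. Named genes were the members called in a comparison, otherwise the 5 with the smallest p, a set list of members and pathway genes, the 3 members with the highest and lowest SD, and called pathway genes. Others were named after their values were seen, as members of a role group or at the end of a range.

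Same-numbered arrays were checked for pairing by correlating deviations from group means over genes, which are not independent replicates. Every pair exceeded 0.1 except some between ethanol at 48 h and medium or DMSO. The block is given beside some results of the other comparisons. Results without it come from the unpaired fit, also where same-numbered arrays deviated together. Alternatives were quantile normalization, centring, a trended robust prior, only the groups compared, array weights, the block, other rules for probe sets and filters, leaving out both ethanol arrays of replicate 3, and leaving out each of 18 arrays.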

Additional observations from a re-analysis of the deposited data

Results flagged for a closer look

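For 2 genes of the mTORC1 list the change from 24 h to 48 h differed between ethanol and medium by limma's test of that difference. It was 1.67 ± 0.35 on the log2 scale for SESN2 (adjusted p = 0.0237) and 1.39 ± 0.29 for EIF4EBP1 (adjusted p = 0.0250). The call was lost in 9 of 28 alternatives for SESN2 and in 10 of 29 for EIF4EBP1, and the highest adjusted p among them was 0.112 and 0.128. No ribosomal protein gene passed this test. With 3 arrays per group, single arrays were not tested for standing apart from their group.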

How the results depend on the processing

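The counts of members past the threshold depended on the processing, while no named value that had passed changed direction. Between ethanol and medium at 24 h the count of 0 became 3 with array weights, 2 with the replicate block, 1 without a filter and 2 without both ethanol arrays of replicate 3. At 48 h the count of 2 became 5 with a trended robust prior, 0 with only the groups compared, 1 with array weights, 6 without a filter, 1 with a filter at 6 and 4 without both ethanol arrays of replicate 3. Between ethanol and DMSO at 24 h the count of 2 became 0 with only the groups compared, 7 with array weights, 0 with probe sets named _at or _a_at and 1 with a filter at 6. At 48 h the count of 3 became 8 with the trended prior, 1 with only the groups compared, 7 with the replicate block and 8 without a filter. Over time, the count in medium became 1 with the replicate block, that in DMSO 1 with array weights, and that of 3 with ethanol 0 with only the groups compared, 6 without a filter and 1 with a filter at 6. At 48 h replicate numbers did not pair all arrays of ethanol with those of medium, where the replicate block gave 3 members. The same holds between ethanol and DMSO at 48 h, where the block gave the 7 members above.

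The members' median difference between ethanol and medium at 24 h was 0.0072 with quantile normalization and 0.0943 with each array centred on its median, and at 48 h it was 0.0351 with quantile normalization. Between ethanol and DMSO it was 0.0055 and 0.1043 at 24 h and 0.0423 and 0.1104 at 48 h. Over time in DMSO it was 0.0156 with quantile normalization and 0.0777 with the mean of a gene's probe sets, and the difference in time change between ethanol and medium was -0.0023 with centring. The cause was not tested.

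With each array left out in turn, the counts ran from 0 to 1 between ethanol and medium at 24 h, from 1 to 3 at 48 h, from 1 to 3 between ethanol and DMSO at 24 h, from 2 to 4 over time with ethanol and from 0 to 1 for the time change with ethanol. The medians ran from 0.0370 to 0.0965 between ethanol and medium at 48 h, from 0.0265 to 0.0943 over time with ethanol and from 0.0066 to 0.0659 for the time change with ethanol. With 3 arrays per group the precision is limited, and RPLP2 and RPL10L lie near background.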
